A study of Homo sapiens with 6 samples.

Results

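The 57 genes described here encode proteins that build ribosomes: RNA polymerase I and its factors, nucleolar scaffold proteins, the core proteins of the small nucleolar ribonucleoproteins (snoRNPs), and processing and assembly factors of the 40S and 60S subunits. They were chosen by name, with earlier results of these data known. A further condition was an average of at least 1 across the 6 libraries. All 57 met it, out of 27394 genes in the table, of which 22189 were tested. RNA was sequenced from PANC-1, a long-established line of human pancreatic cancer cells. Cells of the shControl group carried a control shRNA and those of the shZDHHC20 group an shRNA that silences ZDHHC20, with 3 libraries in each group. ZDHHC20 is a palmitoyltransferase, an enzyme that attaches a fatty acid to cysteines of other proteins, and the study asked how the RNA of these cells differed once it was silenced. Both groups were grown alike and, by the sample titles, both carried an shRNA. The columns of deposited values are instead named siZDHHC20 and NC. The labels do not say which shRNA sequence was used, whether the cells were a clone, or whether the replicates were separate cultures, so p-values measure the spread between these libraries, which may be technical.

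Ribosome production starts in the nucleolus, where RNA polymerase I copies the ribosomal DNA into one long precursor. Box C/D snoRNPs then guide 2'-O-methylation of that precursor and H/ACA snoRNPs guide its pseudouridylation, while the small-subunit processome and the 60S assembly factors cut, fold and pack it with ribosomal proteins. Tumour cells commonly have enlarged nucleoli, and MYC is a known activator of genes of this pathway, many of which carry the E-box CACGTG near their start.

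The sequences around these E-boxes are shown because the motif is shared by a large part of the genes and was not used to choose them. The windows ran from 250 bases before to 50 bases after each transcription start and were taken from RefSeq on GRCh38.p14. Windows of 48 of the 57 genes were analysed. In each line below the 6 bases in capitals are the E-box, with 10 bases on each side, 5′ to 3′ on the strand of the gene. The first 7 belong to 6 genes that were lower in shZDHHC20.
MYBBP1A, chr17:4555342-4555367, minus strand: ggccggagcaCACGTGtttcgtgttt
RRP9, chr3:51941894-51941919, minus strand: gttcagctgcCACGTGagttctgcgg
IMP4, chr2:130342684-130342709, plus strand: ggtcctaagtCACGTGtgacattctg
IMP4, chr2:130342902-130342927, plus strand: ctcccggaccCACGTGgaagcggcac
EBNA1BP2, chr1:43172792-43172817, minus strand: tattgttggcCACGTGggatcgaaga
BYSL, chr6:41921517-41921542, plus strand: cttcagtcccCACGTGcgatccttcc
FBL, chr19:39846358-39846383, minus strand: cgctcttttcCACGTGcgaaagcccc
The next 4 belong to genes with small changes, picked from those whose RNA did not pass the test.
GNL2, chr1:37595919-37595944, minus strand: acgtcgtgcaCACGTGgtccggcgtg
WDR43, chr2:28894660-28894685, plus strand: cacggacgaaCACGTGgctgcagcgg
UTP18, chr17:51260540-51260565, plus strand: agcgaggttcCACGTGagcgcctgcg
PES1, chr22:30591882-30591907, minus strand: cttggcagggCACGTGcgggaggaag

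For the 2 genes with the largest falls, HEATR1 and NCL, the 150 bases before the start are shown for context. They held neither the E-box CACGTG nor the related motif CACGCG on either strand.
HEATR1, chr1:236604517-236604666, minus strand: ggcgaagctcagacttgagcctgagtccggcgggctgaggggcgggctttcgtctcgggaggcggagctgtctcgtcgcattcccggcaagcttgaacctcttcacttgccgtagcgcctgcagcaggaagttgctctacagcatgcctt
NCL, chr2:231464485-231464634, minus strand: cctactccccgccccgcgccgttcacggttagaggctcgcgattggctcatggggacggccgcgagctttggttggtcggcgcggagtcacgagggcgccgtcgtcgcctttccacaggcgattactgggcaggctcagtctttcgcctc

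The deposited values are called normalized counts here, since all values of a library are whole multiples of the lowest nonzero one (0.939 to 1.06) and show no division by gene length. Their sum lay between 17083277 and 18007664 in every library. They are not per gene length, so each gene was compared with itself across libraries. A mean rises with the reads a gene drew, on a scale of unknown depth, and does not give its level relative to other genes. In RNA of whole cultures, fewer cells of a kind and less RNA per cell cannot be told apart. The epithelial keratins KRT8, KRT18 and KRT19 were abundant in all 6 libraries (5771 to 56688 normalized counts), and KRT7 was low at 63.6 to 122. The 9 acinar, islet, leukocyte, endothelial and fibroblast markers with a row in the table did not exceed 20.1.

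ZDHHC20 itself stood at 2001, 2033 and 1940 normalized counts in shControl and at 872, 779 and 893 in shZDHHC20, which is 42.6% of the control mean (log2 fold change -1.23, SE 0.0649, adjusted p = 4.36e-07 by limma with Benjamini-Hochberg adjustment). MYC was at 1797, 1845 and 1969 in shControl and at 1270, 1231 and 1218 in shZDHHC20 (log2 fold change -0.59, SE 0.0576, adjusted p = 2.79e-05). For both genes the groups did not overlap.

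One library stood apart. Over 4136 genes that averaged at least 1000, the SD of the log2 differences between shZDHHC20 replicate 2 and replicates 1 and 3 was 0.178 and 0.198, against 0.0674 to 0.0722 in the 4 other pairs within a group. Over the 38 ribosome biogenesis genes at that level it was 0.136 and 0.151, against 0.0636 to 0.0728, and between groups it was 0.201 to 0.227. Mitochondrially encoded genes took 4.01% of that library and 5.28% to 5.52% of the others. It was the lowest of its group in 34 of the 57 genes, the middle in 6 and the highest in 17. Counts are therefore given with and without it, and its part in the results was not tested.

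Of the 57 genes, 14 were lower in shZDHHC20 and 1, NOLC1, was higher at an adjusted p under 0.05, and 42 did not pass. The lower genes made up 24.6% of the list, where 6.84% of all genes tested were lower and 4.61% were higher. Genes with high values passed more often, and among those averaging 500 or more the lower calls were 13 of 49 (26.5%), with a background of 15.4% lower and 9.33% higher among 6805 genes. The 14 lower genes kept between 68.9% and 89.4% of the control mean, so none fell by 1.5-fold. The count is sensitive to the libraries and the variance model: it was 5, 7 and 7 without shControl replicates 1, 2 and 3, 6 and 12 without shZDHHC20 replicates 1 and 3, and 1 (HEATR1) without the mean-variance trend. These were 8.77%, 12.3%, 12.3%, 10.5%, 21.1% and 1.75% of the list. In the same fits 3.44%, 3.5%, 3.34%, 4.05%, 5.09% and 0.978% of all genes were lower, so calls were lost over all genes too.

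The median log2 fold change of the 57 genes was -0.12, against 0.01 over all genes tested and -0.01 over genes averaging 500 or more. It was below 0 in 46 genes and above 0 in 11. Library by library, the median difference of the 57 genes from the shControl mean was -0.12, -0.12 and -0.06 on the log2 scale in shZDHHC20 replicates 1, 2 and 3. Over all genes tested it was 0.028, 0.036 and 0.027. In the shControl libraries it was between -0.0068 and 0.0017 for the 57 genes, near 0 because the mean was their own. Their summed level was 0.929% to 0.938% of the library in shControl and 0.863% to 0.894% in shZDHHC20. Much of that difference lay in FBL, NPM1 and NCL, and without these 3 genes the sum was 0.493% to 0.495% in shControl and 0.480% to 0.489% in shZDHHC20.

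The groups did not overlap in 24 genes on the low side and 2 on the high side, where 14.8% and 13.8% of all genes tested did so. Among genes averaging 500 or more these were 22 and 2 of 49, with a background of 26.2% and 19.9%. All 15 genes past the threshold had separate groups. Another 10 were lower and 1, RRN3, was higher in every shZDHHC20 library without passing the test. With the criteria of an unadjusted p under 0.01 and a fold of at least 1.5, limma called only NOLC1 and 0 lower genes, where 2.45% of all genes met them, while 23 genes were lower and 2 higher at an unadjusted p under 0.05, as were 12.6% and 11.2% of all genes.

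**Figure D1:**
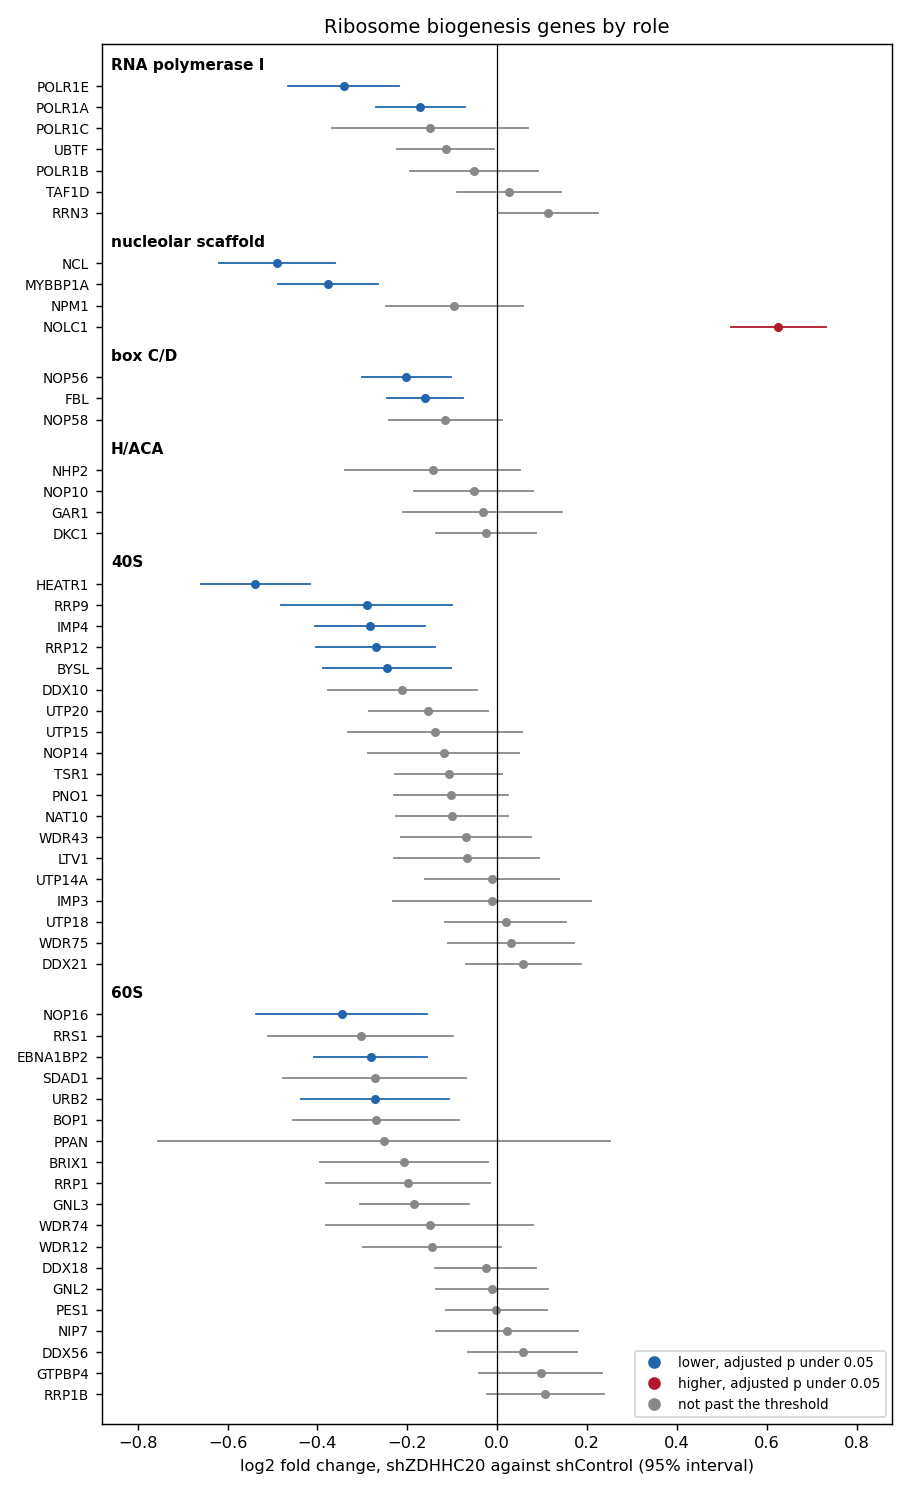
Log2 fold change of shZDHHC20 against shControl (horizontal axis) for 56 ribosome biogenesis genes in 6 role groups, with points for the estimate and lines for the 95% interval; blue genes were lower and the red gene higher at an adjusted p under 0.05, and NOP2 is left out because its interval ran from -1.64 to 2.92. Of the 56 plotted genes 46 lie left of 0, and NOLC1 at 0.63 is the only one past the threshold on the right.

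Without shZDHHC20 replicate 2, 21 of the 57 genes were lower and 4 higher, where 11.1% and 8.93% of all genes were. The 14 genes that were lower with all 6 libraries were among the 21, joined by UBTF, NHP2, BOP1, WDR74, GNL3, RRS1 and RRP1. The 4 higher genes were NOLC1, RRN3, DDX21 and GTPBP4. The median of the 57 genes was then -0.10.

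Of the 7 genes of RNA polymerase I and its factors, 2 subunits were lower (28.6%) and 5 genes did not pass (median log2 fold change -0.11). Among all genes averaging 500 or more, as 6 of the 7 did, 15.4% were lower. POLR1E, a subunit that helps the polymerase at the start of transcription, stood at 1842, 1858 and 1852 normalized counts in shControl and at 1521, 1374 and 1490 in shZDHHC20. It fell by 0.34 on the log2 scale (SE 0.0572, adjusted p = 0.00172), and its shControl libraries lay very close together. POLR1A, the largest, catalytic subunit, stood at 3600, 3647 and 3572 in shControl and at 3216, 3151 and 3243 in shZDHHC20. Its change was smaller, at -0.17 (SE 0.0458, adjusted p = 0.0282), with separate groups, and it no longer passed after quantile normalization (adjusted p = 0.0574) or with a replicate block (adjusted p = 0.0850).

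The factors that bring the polymerase to the ribosomal DNA went different ways and did not pass. UBTF, which binds the ribosomal DNA promoter, stood at 2429, 2371 and 2509 in shControl and at 2257, 2266 and 2226 in shZDHHC20, lower in every library (log2 fold change -0.11, adjusted p = 0.179). RRN3, which carries the polymerase to the promoter, stood at 3763, 3776 and 3865 in shControl and at 4153, 3881 and 4322 in shZDHHC20. Here the order was opposite, with every shZDHHC20 library above every shControl one (log2 fold change 0.11, 95% interval 0.0040 to 0.22, adjusted p = 0.192). Without shZDHHC20 replicate 2 both passed, UBTF at -0.12 (adjusted p = 0.0429) and RRN3 at 0.16 (adjusted p = 0.00316). The remaining genes, POLR1B, POLR1C and TAF1D, ranged from -0.15 to 0.03, and their groups overlapped.

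The 4 nucleolar scaffold genes included the only gene that was higher and 2 that were lower. All 4 averaged 500 or more, a level at which 15.4% of all genes were lower and 9.33% higher. NOLC1, a nucleolar phosphoprotein that binds snoRNPs, stood at 3047, 2934 and 3030 in shControl and at 4763, 4428 and 4716 in shZDHHC20. It was 154% of the control mean (log2 fold change 0.63, SE 0.0489, adjusted p = 7.39e-06), and its 3 shZDHHC20 libraries were far above all controls. NCL, nucleolin, an abundant nucleolar RNA-binding protein, moved the other way, from 15115, 15405 and 15315 to 11509, 9707 and 11520. The change was -0.49 (SE 0.0597, adjusted p = 0.000161) and -0.41 without shZDHHC20 replicate 2, its lowest library.

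MYBBP1A, a nucleolar protein with roles in rRNA processing, stood at 2444, 2560 and 2449 in shControl and at 1965, 1903 and 1875 in shZDHHC20. It fell by 0.38 (SE 0.0514, adjusted p = 0.000393), with all shZDHHC20 libraries close together and below the controls. NPM1, nucleophosmin, the other abundant nucleolar chaperone, stood at 24705, 25629 and 24564 in shControl and at 24381, 20210 and 25880 in shZDHHC20. Its groups overlapped, since only replicate 2 was clearly low (log2 fold change -0.10, 95% interval -0.25 to 0.06, adjusted p = 0.461), and without that library the change was 0.0091. NPM1 has 45 pseudogenes named after it in GENCODE 29, so reads may be split between them and its values are uncertain.

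**Figure D2:**
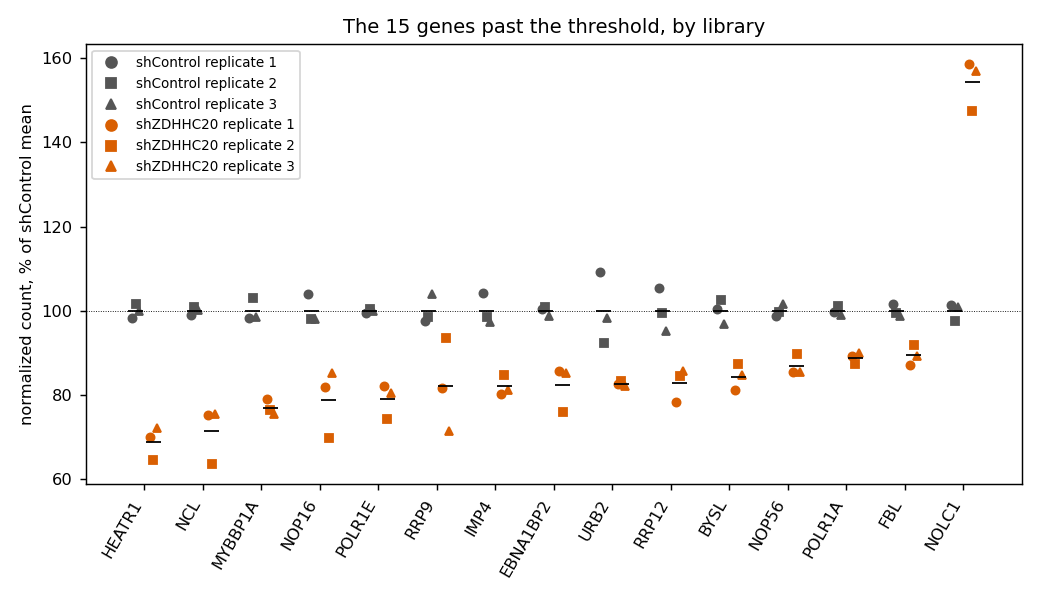
Normalized count as a percentage of the shControl mean (vertical axis) in each library for the 15 genes past the threshold, with grey symbols for shControl, orange for shZDHHC20, one symbol shape per replicate number and bars for group means. The groups are separate for all 15 genes, from HEATR1 at 68.9% to FBL at 89.4% of the control mean, and NOLC1 stands at 154%.

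All 3 box C/D core proteins had lower means, and 2 passed the test. All 3 averaged 500 or more, where 15.4% of all genes were lower. FBL, fibrillarin, the methyltransferase of these particles, stood at 39380, 38562 and 38264 in shControl and at 33799, 35581 and 34564 in shZDHHC20. The difference was small and separate between groups (log2 fold change -0.16, SE 0.0391, adjusted p = 0.0171). After quantile normalization it was -0.013 (adjusted p = 0.916), while with median-ratio scaling it stayed at -0.16 (adjusted p = 0.0168, limma). With a replicate block its adjusted p was 0.0771. NOP56, a core scaffold protein of the particle, stood at 4426, 4469 and 4556 in shControl and at 3837, 4020 and 3833 in shZDHHC20 (log2 fold change -0.20, SE 0.0459, adjusted p = 0.0116). NOP56 did not pass without the mean-variance trend (adjusted p = 0.159, limma), nor when any shControl replicate or shZDHHC20 replicate 1 was left out. NOP58, the partner of NOP56, stood at 2768, 2888 and 2621 in shControl and at 2605, 2387 and 2651 in shZDHHC20. Its groups overlapped, and the change of -0.12 had a 95% interval of -0.24 to 0.010 (adjusted p = 0.253).

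None of the 4 H/ACA core proteins passed in limma, and none had an unadjusted p under 0.05 (median -0.04). Of the 4, 3 averaged 500 or more, a level at which 15.4% of all genes were lower. DKC1, dyskerin, the pseudouridine synthase, stood at 3155, 3461 and 3275 in shControl and at 3298, 3155 and 3265 in shZDHHC20. The ranges overlapped, and the 95% interval of the change was -0.14 to 0.09. NHP2 stood at 1512, 1535 and 1559 in shControl and at 1219, 1659 and 1327 in shZDHHC20, with replicate 2 above and the other two below all controls. Its change was -0.14 (adjusted p = 0.374) with that library and -0.27 (adjusted p = 0.00117) without it. NOP10, which binds dyskerin directly, stood at 1478, 1576 and 1538 in shControl and at 1410, 1582 and 1440 in shZDHHC20 (adjusted p = 0.664), again with replicate 2 the highest of its group. GAR1 differed by -0.03 with overlapping groups.

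Of the 19 genes of 40S maturation, 5 were lower (26.3%) and 14 did not pass (median -0.11). Among all genes averaging 500 or more, as 17 of the 19 did, 15.4% were lower. HEATR1, a subunit of the small-subunit processome that is also needed for transcription of the ribosomal DNA, stood at 2468, 2548 and 2506 in shControl and at 1756, 1617 and 1812 in shZDHHC20. It was the largest fall among the 57 genes, to 68.9% of the control mean (log2 fold change -0.54, SE 0.0566, adjusted p = 5.07e-05). IMP4, a U3 snoRNP protein, stood at 1720, 1627 and 1607 in shControl and at 1326, 1400 and 1342 in shZDHHC20 (log2 fold change -0.28, SE 0.0568, adjusted p = 0.00565). RRP12, which acts in maturation and export of the pre-40S particle, stood at 1731, 1633 and 1566 in shControl and at 1288, 1390 and 1409 in shZDHHC20 (log2 fold change -0.27, SE 0.0617, adjusted p = 0.0121). In each of these genes the highest shZDHHC20 library lay below the lowest control.

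RRP9, the U3-specific protein of its snoRNP, and BYSL, bystin, were the other lower genes of the 40S group. RRP9 was just inside the threshold at -0.29 (SE 0.0882, adjusted p = 0.0497), and its shZDHHC20 libraries spread from 662 to 867 normalized counts. After quantile normalization its adjusted p was 0.0794, and it did not pass with a replicate block either (adjusted p = 0.0639). BYSL changed by -0.25 (SE 0.0659, adjusted p = 0.0286, or 0.0631 with a replicate block). DDX21, an RNA helicase, stood at 7583, 7634 and 7658 in shControl and at 8306, 7121 and 8462 in shZDHHC20. Replicate 2 lay below the controls and the other two above, so its change was 0.06 (adjusted p = 0.608) with replicate 2 and 0.14 (adjusted p = 0.00112) without it. The other 13 genes ranged from -0.21 (DDX10) to 0.03 (WDR75), and DDX10, UTP20, PNO1, TSR1 and LTV1 were lower in every shZDHHC20 library.

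Of the 20 genes of 60S assembly, 3 were lower (15%) and 17 did not pass (median -0.17). That share was near the background of 15.4% lower among all genes averaging 500 or more, as 16 of the 20 did. EBNA1BP2 stood at 2434, 2447 and 2394 in shControl and at 2081, 1843 and 2070 in shZDHHC20 (log2 fold change -0.28, SE 0.0582, adjusted p = 0.00685). NOP16 stood at 563, 530 and 531 in shControl and at 443, 378 and 461 in shZDHHC20 (log2 fold change -0.35, SE 0.0883, adjusted p = 0.0221). URB2 stood at 773, 653 and 696 in shControl and at 584, 589 and 580 in shZDHHC20 (log2 fold change -0.27, SE 0.0766, adjusted p = 0.0359). For URB2 the spread lay in the controls, and the shZDHHC20 libraries nearly coincided. Its adjusted p was 0.0534 after quantile normalization and 0.0623 with a replicate block.

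Several 60S genes lay just outside the threshold. GNL3, the nucleolar GTPase nucleostemin, had an adjusted p of 0.0512 (log2 fold change -0.18, limma). RRS1 had -0.30 (adjusted p = 0.0575), BOP1 -0.27 (adjusted p = 0.0619) and SDAD1 -0.27 (adjusted p = 0.0849). The groups were separate for GNL3 and BOP1 and overlapped for RRS1 and SDAD1. BOP1, PES1 and WDR12 form a complex needed for the 60S subunit, and their RNAs were not equally changed in size: BOP1 differed by -0.27, WDR12 by -0.14 and PES1 by -0.0019, without a test of the difference between them. DDX18, another helicase, stood at 2918, 3027 and 3023 in shControl and at 3022, 2777 and 3017 in shZDHHC20. Its groups overlapped, and the 95% interval of its change was -0.14 to 0.09. PPAN and NOP2 had means under 100 and gave no usable estimate: NOP2 ranged from 1.0 to 16.9 over the 6 libraries (SE 1.06), and PPAN had an SE of 0.233.

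Among the 42 genes that did not pass, 32 lay below 0 and 10 above. For 26 of them the 95% interval lay within 0.26 of 0 on the log2 scale. The SE of the 55 genes other than PPAN and NOP2 was 0.0391 to 0.107, and the smallest change that passed was 0.16. Reads shared with other genes limit some values. In GENCODE 29, 30 of the 57 genes overlap a gene on the other strand and 8 overlap one on the same strand, among them HEATR1 (AL359921.1), RRP12 (RPL34P20), NOP2 (AC006064.6) and PPAN (the readthrough gene PPAN-P2RY11). Of the 15 genes past the threshold these are 7 and 2, and NCL and NOP56 have pseudogenes named after them. Whether strand was used in counting is not given in the sources used here.

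Genes of the same pathway outside the list, 147 more by function, were examined in the same fit. Of the 146 tested, 22 were lower (15.1%) and 4 higher (2.74%), with a median of -0.04, against 6.84% and 4.61% of all genes. Of the 103 that averaged 500 or more, 14 were lower (13.6%) and 4 higher (3.88%), where 15.4% and 9.33% of all such genes were, so the share of lower genes was near the background. The 16 other RNA polymerase I genes included 2 lower (12.5%), both subunits of the polymerase: POLR1G at -0.55 (adjusted p = 0.0136) and POLR1H at -0.53 (adjusted p = 0.0340). Of the 46 other 40S genes, 5 were lower (10.9%), led by NOL6 at -0.21 (adjusted p = 0.0184), and 1 was higher, the kinase RIOK3 at 0.27 (adjusted p = 0.0220).

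Of the 46 other 60S genes, 8 were lower (17.4%) and 2 higher, and 38 of the 46 averaged 500 or more. RPF1 was lower by 0.49 (adjusted p = 0.000270), while SBDS, which acts at the last cytoplasmic step of 60S maturation, was higher at 0.60 (adjusted p = 0.000344), from 516, 581 and 621 in shControl to 901, 818 and 878 in shZDHHC20. Among 11 snoRNP assembly factors 4 were lower (36.4%), with RUVBL1 at -0.27 (adjusted p = 0.00552) and ZNHIT6 at -0.26 (adjusted p = 0.0127) first. Of the 11, 7 averaged 500 or more, a level at which 15.4% of all genes were lower. Of 17 exosome and trimming genes, 2 were lower (11.8%), including EXOSC1 at -0.68 (adjusted p = 0.000124), and 1 was higher, the exosome nuclease DIS3 at 0.39 (adjusted p = 0.00319). Of 10 RNase MRP and RNase P genes only RPP25 passed (-0.27, adjusted p = 0.0220). In the exosome and the RNase lists 10 and 3 genes averaged 500 or more.

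**Figure D3:**
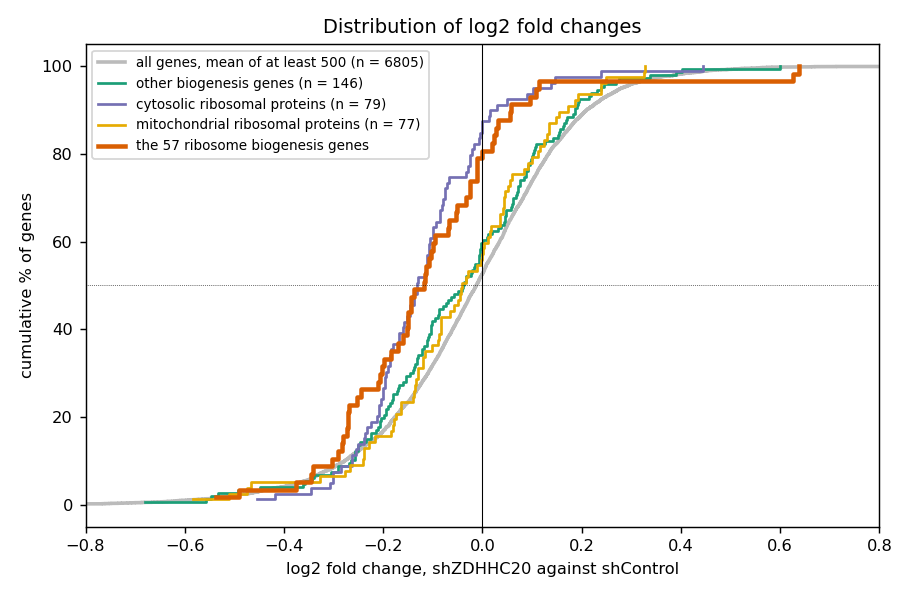
Cumulative percentage of genes (vertical axis) by log2 fold change of shZDHHC20 against shControl (horizontal axis) for the 57 ribosome biogenesis genes, 146 other biogenesis genes, 79 cytosolic and 77 mitochondrial ribosomal protein genes and 6805 genes averaging 500 or more. The curves of the 57 genes and of the cytosolic ribosomal proteins lie left of the others, with medians of -0.12 and -0.13 against -0.04, -0.04 and -0.01.

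Of the 79 genes for the proteins of the cytosolic ribosome, 26 were lower (32.9%) and 0 higher in limma (3 higher at an unadjusted p under 0.05), with a median of -0.13. Of 77 mitochondrial ribosomal protein genes, whose ribosomes are built outside the nucleolus, 5 were lower (6.49%) and 2 higher, with a median of -0.04. Of all genes tested 6.84% were lower, and of those averaging 500 or more 15.4%, a level reached by 75 of the cytosolic and 53 of the mitochondrial genes. That background was not matched in level to either list. The median of the gene means was 8830 in the cytosolic list, 735 in the mitochondrial list and 1235 over genes averaging 500 or more. The difference between these lists was not tested.

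Of 20 genes of proliferation, 7 were lower (35.0%) and 0 higher in limma (0 higher at an unadjusted p under 0.05), and 13 did not pass. The background is 15.4% lower among genes averaging 500 or more, as 19 of the 20 did. Their summed level was 43700 to 44256 normalized counts in shControl and 38481 to 42013 in shZDHHC20. TYMS at -0.56, MCM2 at -0.34 and PLK1 at -0.32 were among the lower ones, and MKI67 at -0.09 (adjusted p = 0.374) did not pass. The part of proliferation in the values of the ribosome biogenesis genes was not tested.

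The E-box CACGTG, which reads the same on both strands, lay in at least one promoter window of 22 of the 48 genes with a RefSeq window (45.8%). It was found for 8.78% of all genes with a window, 11.9% of those tested, 13.8% of those tested that averaged 500 or more and 23.4% of the 124 other biogenesis genes with a window. In 20 of the 22 genes at least one E-box began within 50 bases of the start. The related motif CACGCG, searched on both strands and unable to match the same 6 bases as the E-box, lay in 35.4% of the 48 genes and 13.5% of all genes with a window. It was found for 21.0% of those tested, 24.6% of those tested that averaged 500 or more and 32.3% of the 124 other biogenesis genes. A match describes letters in the window and not a bound site.

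The E-box was present in genes that were lower and in genes that were not. Of the 11 lower genes with a window, 6 held it, and of the 37 genes that did not pass, 16 did. The 22 genes with it had a median log2 fold change of -0.10 and the 26 without it a median of -0.14. Over all genes tested that had a window the order was the other way. Medians were -0.037 for the 1561 genes with the E-box and 0.012 for the 11524 without it, of which 12.2% and 8.70% were lower. These shares were not matched for level, and the E-box was more frequent among tested genes averaging 500 or more (13.8%) than among all tested (11.9%). Of the 22 genes with it 6 were lower and 19 lay below 0, and of the 26 without it 5 were lower and 20 lay below 0. HEATR1 and NCL, the largest falls, had windows without it. Among the 16 genes with it that did not pass, changes differed in size. PES1, WDR43, GNL2 and UTP18, whose E-boxes are printed above and which were picked for small changes, differed by no more than 0.07. Larger ones were SDAD1 (-0.27), GNL3 (-0.18) and UTP20 (-0.15). The part of the E-box in these changes was not tested. RefSeq windows for NOLC1 were not analysed here.

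**Figure D4:**
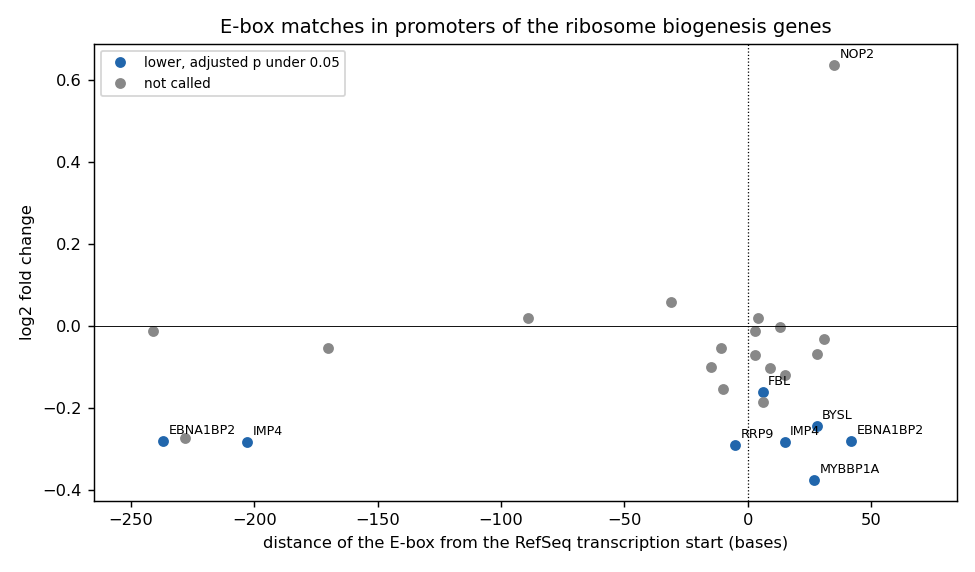
Log2 fold change of shZDHHC20 against shControl (vertical axis) by distance of each E-box match from the RefSeq transcription start in bases (horizontal axis, 0 at the start), with 1 point for each match in the 22 genes that hold one; genes that were lower at an adjusted p under 0.05 are blue and named, and genes that did not pass are grey. Most matches cluster around the start in lower and in grey genes alike, and the grey point near 0.64 is NOP2, whose values were too low to judge.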

How the data were processed

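The authors deposited 1 table with a normalized signal value per gene and library for 3 shControl and 3 shZDHHC20 RNA-seq libraries of PANC-1 cells. The labels give a strand-specific kit and total RNA, and the submitters' processing notes list hg 19. The aligner, counting tool and normalization are not given in the sources used here. In each library 100% of values were whole multiples of its smallest value above 0 (tolerance 0.05), and by these steps relative depth was 93.9% to 105.9% of the mean. The absolute depth is unknown, so no counting intervals are given. Columns named siZDHHC20 and NC were matched to samples by group and number.

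Values were treated as a continuous signal. Log2(value + 0.1) was fitted with group as the term in limma 3.58.1 (R 4.3.3), with moderated variances and a mean-variance trend, for the 22189 genes that averaged at least 1. Tests were two-sided and Benjamini-Hochberg adjusted over all of them, with a threshold of 0.05. Fold changes are on this scale, which understates those of low genes. The scripts were tested on simulated data.

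The 57 genes and the comparison lists were chosen with earlier results of these data known. The genes with values in every library are the 3 with the smallest adjusted p in each role group, the one with the highest mean, and any higher gene, and the 2 with the smallest adjusted p are named from each other biogenesis list. PES1, WDR43, GNL2, UTP18, the genes just outside the threshold and the genes that passed without shZDHHC20 replicate 2 were named after their values were seen, as was the background of genes averaging 500 or more. Names came from the reference table for 27175 identifiers and from GENCODE 29 (GRCh38) for 219. Figures were drawn with matplotlib 3.10.9.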

Additional observations from a re-analysis of the deposited data

How the results depend on the processing

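NOLC1 and HEATR1 kept their calls in all 15 alternatives, and none of the 15 called genes changed direction. Over the 15 alternatives, 60 of their calls were lost in all, 13 of them without the mean-variance trend. The criteria of an unadjusted p under 0.01 and a fold of at least 1.5 were not counted among the 15. HEATR1 did not meet these criteria. POLR1E, NCL and MYBBP1A kept the call in 14 alternatives, IMP4 and EBNA1BP2 in 13, RRP12 in 11, and NOP56 and NOP16 in 10. FBL, BYSL and URB2 kept it in 8, POLR1A in 7 and RRP9 in 5. The number of lower genes was 17 with a pseudocount of 1, with a mean of at least 5 and with robust moderation, 14 with median-ratio scaling, 13 with a pseudocount of 0.01 and with no filter, 10 after quantile normalization (POLR1A, FBL, RRP9 and URB2 no longer passed), 9 with a replicate block and 1 (HEATR1) without the trend. In the same order, 7.23%, 9.84%, 7.34%, 6.86%, 6.39%, 5.29%, 5.71%, 5.31% and 0.978% of all genes were lower. With the criteria of an unadjusted p under 0.01 and a fold of at least 1.5 the number of lower genes was 0 by limma, where 2.45% of all genes met them in either direction. At an unadjusted p under 0.05 it was 23, where 12.6% of all genes were lower.

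Without the trend, 1 of the other biogenesis genes was lower and 0 were higher in limma (12 higher at an unadjusted p under 0.05), and over all genes 217 were lower and 134 higher. After quantile normalization 8 of the other biogenesis genes were higher, the median of the 57 genes was -0.097, and DDX18 (0.0052) and DKC1 (0.012) changed sign. The cause of these differences was not tested.

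Leaving out each library in turn gave 5 to 21 lower and 1 to 4 higher of the 57 genes, 5 to 43 lower and 3 to 21 higher of the other biogenesis genes, and 742 to 2467 lower and 467 to 1987 higher of all genes, with a median of the 57 genes from -0.13 to -0.10. The highest of these counts came without shZDHHC20 replicate 2. Lower genes numbered 5, 7 and 7 without shControl replicates 1, 2 and 3, and 6 and 12 without shZDHHC20 replicates 1 and 3, where each fit had fewer libraries. Across the same fits DKC1 ranged from -0.056 to 0.011, DDX18 from -0.046 to 0.015 and NPM1 from -0.17 to 0.0091, above 0 without shControl replicate 2 for DKC1 and without shZDHHC20 replicate 2 for DDX18 and NPM1.

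Deviations of same-numbered libraries correlated at -0.19, -0.27 and -0.078, and those of differently numbered ones at -0.20 to 0.26. With 3 libraries in each group these values cannot show whether replicate numbers pair the libraries. The replicate block left 9 lower genes and 1 higher, and POLR1A, FBL, RRP9, BYSL and URB2 no longer passed. The planned count tests were not run, because the values were treated as a continuous signal. Absolute depth is unknown, and changes under about 0.16 on the log2 scale were not called in any of the 57 genes with all 6 libraries.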
